A study of Rattus norvegicus with 8 samples.

Results

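The genes described here were listed for the route from ethylene glycol and hydroxyproline to oxalate, or for carrying oxalate across tubule membranes. They are the 10 genes Aldh2, Hao1, Hao2, Grhpr, Agxt2, Dao, Prodh2, Hoga1, Slc26a1 and Slc26a6, taken by symbol. The list was chosen with earlier results of these data known. Each was measured by 1 probe set, so all 10 could be read among the 18166 genes named with 1 symbol on the array. RNA came from kidney of male Wistar rats, 10 weeks old, and was hybridised to Affymetrix whole-transcript arrays. Both groups carry the same treatment label, ethylene glycol given daily with vitamin D every second day for 1 week, and they differ in tissue region, with 4 arrays of cortex and 4 of medulla. No untreated group enters any comparison. The titles number the rat samples without saying that each is a separate animal, and p-values therefore cover the spread between arrays only, which may in part be technical. Replicate numbers here follow sample order within a region; whether equal numbers in cortex and medulla share an animal is not given, and no pairing was used.

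Ethylene glycol is oxidised by alcohol dehydrogenase and aldehyde dehydrogenase to glycolate, glycolate by glycolate oxidase to glyoxylate, and glyoxylate by lactate dehydrogenase to oxalate. Transamination to glycine and reduction back to glycolate remove glyoxylate before it reaches oxalate. The breakdown of hydroxyproline, an amino acid of collagen, is another source of glyoxylate in mitochondria. Proximal tubule cells of the kidney hold part of this chemistry, and anion exchangers of the Slc26 family move oxalate over their basolateral and apical membranes. With calcium, oxalate forms the crystals that the ethylene glycol model is used to produce.

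The upstream sequence of 4 of the genes is shown because Prodh2, Grhpr and Slc26a1 were the genes that spread at least 2-fold between arrays of a region, and Agxt2 held the rarest of the motifs searched. Each run is the 250 bases before the annotated start, 5′ to 3′, from RefSeq on GRCr8. They lie at chr1:94880837-94881086, plus strand (Prodh2), chr5:64029606-64029855, plus strand (Grhpr), chr14:1184721-1184970, plus strand (Slc26a1) and chr2:61063166-61063415, plus strand (Agxt2). Capitals mark matches, on either strand, to the hepatocyte nuclear factor HNF1 half-site GTTAAT, the HNF4 core CAAAGTCCA or the nuclear receptor half-site AGGTCA, and no matches overlapped.
Prodh2: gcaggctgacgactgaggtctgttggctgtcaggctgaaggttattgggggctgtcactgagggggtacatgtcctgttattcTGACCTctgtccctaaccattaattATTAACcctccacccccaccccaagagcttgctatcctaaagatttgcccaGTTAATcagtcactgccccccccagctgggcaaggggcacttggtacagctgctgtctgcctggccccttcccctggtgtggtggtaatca
Grhpr: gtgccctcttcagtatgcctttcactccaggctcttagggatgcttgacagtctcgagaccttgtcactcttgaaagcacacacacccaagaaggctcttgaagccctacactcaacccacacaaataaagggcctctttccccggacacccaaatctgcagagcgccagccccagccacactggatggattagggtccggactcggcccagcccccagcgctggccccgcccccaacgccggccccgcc
Slc26a1: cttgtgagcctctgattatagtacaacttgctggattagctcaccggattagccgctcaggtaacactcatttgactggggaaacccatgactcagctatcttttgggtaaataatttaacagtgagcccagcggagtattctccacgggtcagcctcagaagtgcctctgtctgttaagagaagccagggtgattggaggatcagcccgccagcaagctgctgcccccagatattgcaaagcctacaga
Agxt2: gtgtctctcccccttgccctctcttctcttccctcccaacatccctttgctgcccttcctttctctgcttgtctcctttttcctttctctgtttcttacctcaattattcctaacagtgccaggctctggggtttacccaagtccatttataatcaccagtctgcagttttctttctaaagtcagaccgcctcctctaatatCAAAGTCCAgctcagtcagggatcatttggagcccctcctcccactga

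Of the 10 genes, 8 had an entry in the promoter table, and Aldh2 and Slc26a6 had none. Prodh2 held the HNF1 half-site at 2 places, beginning 142 and 91 bases before the start, and was the 1 gene of the 8 to hold it, against 6.45% of all 33469 promoter windows of that length. The HNF4 core stood in Agxt2, 48 bases before the start, again in 1 of the 8 genes and in 0.338% of all windows. The nuclear receptor half-site was in Prodh2, 167 bases before the start, and in Dao, 44 bases before it, which made 2 of the 8 genes against 14.1% of all windows. Hao1, Hao2, Grhpr, Hoga1 and Slc26a1 held none of these letters in the window. A match describes the letters and was not tested as a binding site.

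The arrays were alike in their distribution, with medians between 34.1 and 34.7 intensity units and lower quartiles between 21.8 and 22.3. Intensities are given below on the log2 scale, and because the brightness of a probe set depends on its probes, a gene is compared with itself between arrays and not with other genes. The medullary urea transporter gene Slc14a2 measured 4.80 to 5.88 in cortex and 6.15 to 7.42 in medulla, and was the 1 of 9 measured medullary genes whose regions did not overlap. The proximal tubule phosphate transporter gene Slc34a1 overlapped, at 10.42 to 11.10 in cortex and 9.71 to 11.01 in medulla. Arrays of the same region differed widely in injury and vitamin D response. Havcr1, which encodes kidney injury molecule 1, ran from 4.59 to 11.27 in cortex and from 4.54 to 11.32 in medulla, highest on replicate 4 of both regions. Cyp24a1, the vitamin D hydroxylase, stood between 5.31 and 6.21 on replicates 1 and 2 of both regions and between 9.97 and 10.65 on replicates 3 and 4. The comparison of regions had no term for such differences within a region, which therefore stay in its standard errors.

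None of the 10 genes was called different between the regions. All 10 means were lower in medulla, though the sign turned for Hao1 and Slc26a6 when single arrays were left out. The lower values were uneven over the medulla arrays. Grhpr, Hoga1 and Dao lay below every cortex array on medulla replicates 3 and 4 only. Agxt2 and Hao2 did so on replicates 1 and 4, and Aldh2 and Prodh2 on replicates 1, 3 and 4. Hao1 did so narrowly on replicate 1, Slc26a6 on replicate 3 and Slc26a1 on no array. Hoga1 measured 8.74 and 8.99 on medulla replicates 1 and 2, against 8.50 to 9.03 in cortex. limma on all genes with Benjamini-Hochberg adjustment, at an adjusted p under 0.05 and at least 2-fold, called 0 of the 10, and 0 of all 18166 genes (0%). The adjusted p of the 10 genes lay between 0.875 and 0.965. At an unadjusted p under 0.05 there was 1 of the 10, Aldh2, against 5.35% of all genes, and in 0 of the 10 did the values of the regions fail to overlap, against 2.83% of all genes. A mean below that of cortex was found in 54.2% of all genes. The median difference of the 10 genes was -0.33 log2 units, and that of all genes -0.01. Other lists lay on both sides, with 0 genes called in each. Medullary genes had a higher mean in medulla in 8 of 9, with a median difference of 0.78. Injury genes did so in 13 of 14, with 0.44, and leukocyte genes in 5 of 6, with 0.22. Lower means were found for vitamin D and calcium genes in 5 of 6, with -0.40, and for proximal tubule S1 and S2 genes in 15 of 16, with -0.36. Straight tubule genes were lower in 5 of 8, with -0.15, and other pathway genes in 20 of 25, with -0.11. Liver genes were lower in 4 of 7, with -0.002, and fat, muscle and adrenal markers in 5 of 5, with -0.06. The part of these lists in the differences of the 10 genes was not tested. In bulk tissue, fewer cells of a type and less RNA per cell cannot be told apart.

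**Figure D1:**
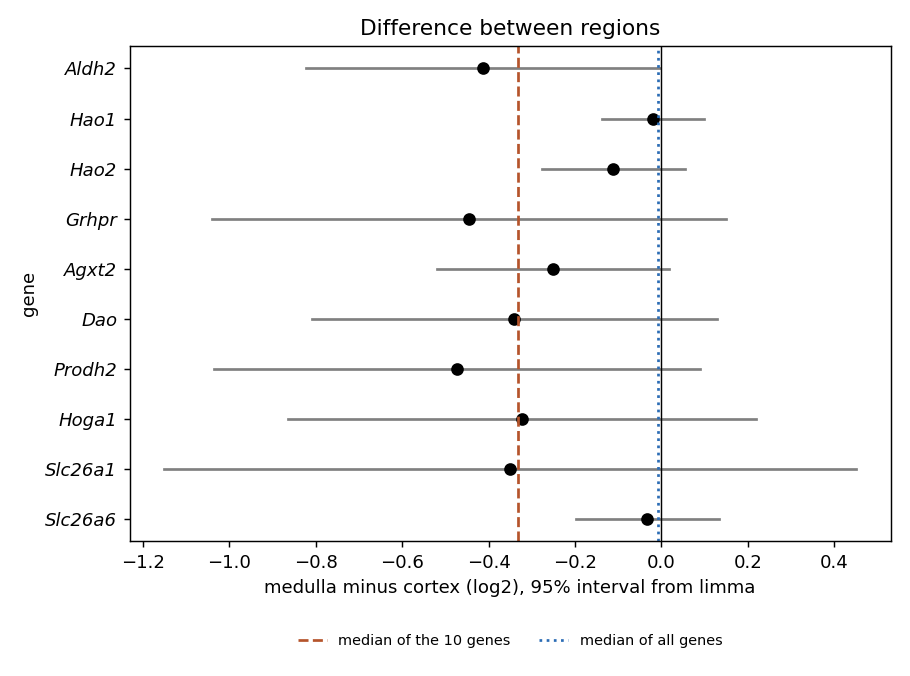
Medulla minus cortex difference of each gene on the log2 scale (points) with the 95% interval from limma (grey lines), and the medians of the 10 genes (dashed) and of all genes (dotted). The points all lie below 0, from -0.47 for Prodh2 to -0.02 for Hao1, whose sign turned, like that of Slc26a6, with single arrays left out; 9 of the 10 intervals include 0.

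Aldh2 encodes the mitochondrial aldehyde dehydrogenase that oxidises aldehydes to acids. In cortex, replicates 1 to 4 in turn, it measured 8.86, 9.25, 9.30 and 9.08, and in medulla, in the same order, 8.85, 9.12, 8.39 and 8.49. Medulla replicates 3 and 4, and narrowly replicate 1, lay below every cortex array, and medulla replicate 2 did not. The difference was -0.41 with a standard error of 0.18, and its 95% interval, -0.82 to -0.0023, ended just under 0. The unadjusted p was 0.049 in limma and 0.114 by the exact two-sided permutation test of the 4 against 4 arrays, whose smallest possible p is 0.0286, and the limma adjusted p was 0.875.

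The hydroxy acid oxidases turn hydroxy acids into keto acids in peroxisomes, and they differ in the acids they prefer. Hao1, the glycolate oxidase known from liver, stayed between 4.49 and 4.69 on all 8 arrays, or 22.5 to 25.8 intensity units. Its probe set was brighter than 26.8% to 35.5% of the probe sets of an array, so that background limits any fold that could be read from it. Its difference of -0.02 ± 0.05 (SE) changed sign without cortex replicate 4 or without medulla replicate 1. Hao2, the long-chain hydroxy acid oxidase known from kidney, measured 11.03, 11.21, 11.11 and 10.94 in cortex, with 10.93, 11.04, 11.03 and 10.84 in medulla. It was brighter than 99.7% of probe sets or more on each array. Its arrays lay within 1.21-fold of each other in cortex, and within 1.15-fold in medulla, and replicate 4 was lowest in both regions. The regional difference was -0.11 ± 0.07 (SE), with adjusted p = 0.877 by limma, and -0.03 after quantile normalization of the deposited values. Leaving out cortex replicate 2 made it -0.064, and leaving out medulla replicate 4 made it -0.071.

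Grhpr and Agxt2 encode enzymes that remove glyoxylate, by reduction and by transfer of an amino group. Grhpr, the glyoxylate and hydroxypyruvate reductase, measured 8.65, 9.01, 8.89 and 8.31 in cortex, with 8.56, 8.77, 8.01 and 7.73 in medulla. Replicate 4 was lowest in both regions, and the 2 lowest medulla values lay under the lowest cortex value. Cortex had a mean of 8.72 ± 0.31 (SD, n = 4) and medulla one of 8.27 ± 0.48 (SD, n = 4). They differed by -0.45 ± 0.26 (SE), or by -0.27 without medulla replicate 4. Agxt2, the mitochondrial alanine-glyoxylate aminotransferase of kidney, measured 10.37, 10.64, 10.53 and 10.50 in cortex, with 10.13, 10.45, 10.45 and 10.004 in medulla. Medulla replicates 1 and 4 lay below all cortex arrays, and the others were within them. The difference of -0.25 ± 0.12 (SE) became -0.17 without medulla replicate 4, and the limma adjusted p was 0.876 for Grhpr and 0.875 for Agxt2.

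Dao, Prodh2 and Hoga1 encode enzymes that yield glyoxylate from amino acids. Dao, the peroxisomal D-amino acid oxidase, measured 9.98, 10.45, 10.49 and 10.02 in cortex, with 9.99, 10.27, 9.89 and 9.42 in medulla, with replicates 1 and 4 low in cortex and replicate 4 lowest in medulla. The regions differed by -0.34 ± 0.20 (SE), or -0.18 without medulla replicate 4. Prodh2, the hydroxyproline dehydrogenase that starts the breakdown of hydroxyproline, measured 6.46, 6.95, 7.07 and 6.56 in cortex, with 6.25, 6.88, 6.21 and 5.80 in medulla. Replicates 2 and 3 were the high cortex arrays, and replicate 2 alone was high in medulla, where the other 3 lay below the lowest cortex array. Its difference, -0.47 ± 0.24 (SE), became -0.31 without medulla replicate 4 and had an adjusted p of 0.875 by limma. Hoga1, the aldolase that splits the last intermediate into glyoxylate and pyruvate, measured 8.73, 9.03, 8.93 and 8.50 in cortex, with 8.74, 8.99, 8.16 and 8.02 in medulla. Medulla replicates 3 and 4 lay below all cortex arrays, and the difference was -0.32 ± 0.23 (SE), or -0.17 without medulla replicate 4 and -0.49 without medulla replicate 2.

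Slc26a1 and Slc26a6 encode the exchangers that carry oxalate over the basolateral membrane, against sulfate, and over the apical membrane, against chloride. Slc26a1 measured 6.78, 7.65, 7.68 and 8.47 in cortex, with 7.09, 7.45, 6.94 and 7.70 in medulla. Replicate 4 was highest in both regions, and cortex replicate 1 lay below all the other 7 arrays. In intensity units the cortex arrays ran from 110 to 354. The regional difference was -0.35 ± 0.34 (SE), with adjusted p = 0.907 by limma, and -0.08 without cortex replicate 4 or -0.64 without cortex replicate 1. Without medulla replicate 3 it was -0.23. Slc26a6 stayed between 5.33 and 5.66 on all arrays, a little above the array medians of 5.09 to 5.12. Its lowest value was on medulla replicate 3, and the difference of -0.03 ± 0.07 (SE) changed sign when cortex replicate 4 or medulla replicate 3 was left out, and with array weights.

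**Figure D2:**
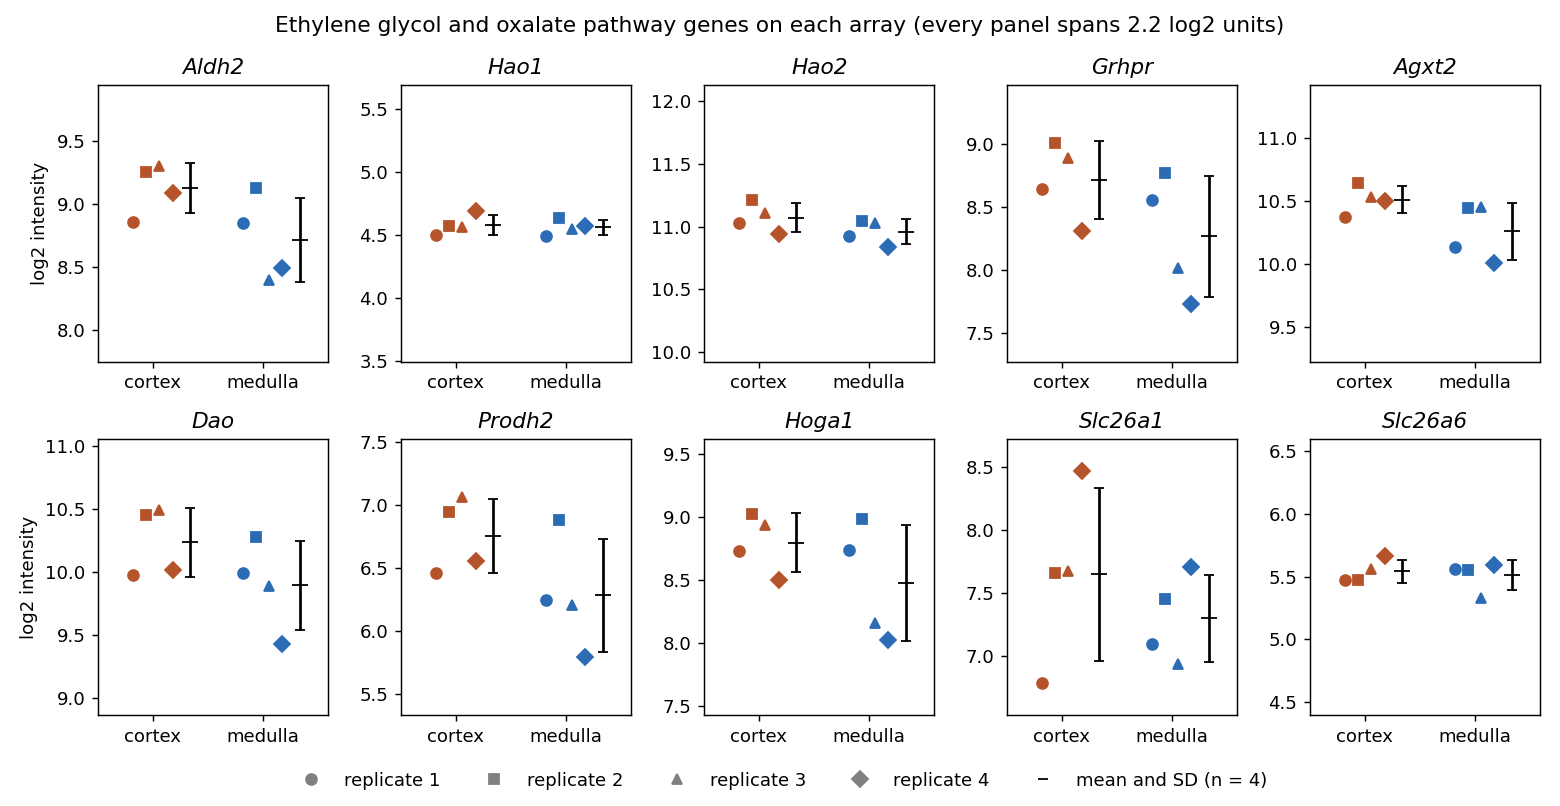
The log2 intensity of the 10 genes on each array, in cortex (orange) and medulla (blue), with a symbol for each replicate number and the mean and SD of the 4 arrays in black. Each panel spans 2.2 log2 units; Slc26a1 spread most in cortex, from 6.78 to 8.47, while Hao1, Hao2 and Slc26a6 stayed nearly level.

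Within a region, Slc26a1 spread at least 2-fold between arrays in cortex only, and Prodh2 and Grhpr in medulla only. The study's design text keeps genes that vary at least 2-fold in cortex and in medulla, but which arrays it compared is not in the labels. The range over the 4 arrays of a region is therefore given, with no test. In cortex 1 of the 10 genes, Slc26a1, reached 2-fold, against 3.60% of all genes, with a range of 3.21-fold. In medulla 2 of the 10 did so, against 3.80% of all genes, namely Prodh2 at 2.13-fold and Grhpr at 2.06-fold. Hoga1 followed just outside, at 1.95-fold. None of the 10 passed in both regions, against 2.21% of all genes. The median range was 0.48 log2 units in cortex and 0.75 in medulla for the 10 genes, and 0.21 and 0.25 for all genes, which include many dim ones.

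These counts rested on single arrays, though a range can only stay or fall when an array is left out. Without cortex replicate 1 or without cortex replicate 4 the range of Slc26a1 was 0.81 or 0.89 log2 units and the cortex count was 0. Without medulla replicate 2 or without medulla replicate 4 the medulla count was 0 as well, with Prodh2 at 0.45 without the former. Leaving out both replicate 4 arrays, which was decided with the data in view, gave counts of 0 in cortex and 0 in medulla. Slc26a1 ranged over 1.70-fold in medulla, and Prodh2 and Grhpr over 1.52-fold and 1.63-fold in cortex.

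**Figure D3:**
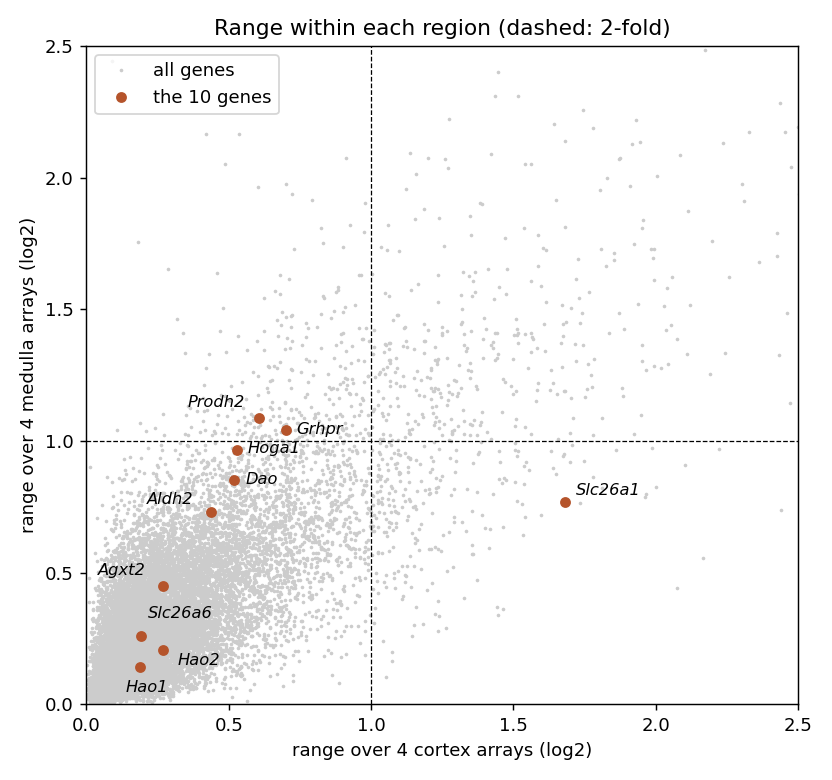
Range of log2 intensity over the 4 cortex arrays (horizontal) and over the 4 medulla arrays (vertical) for the 10 genes (orange, named) and all genes (grey); dashed lines mark 2-fold, and 51 genes lie outside the plotted area. Slc26a1 is the 1 named gene right of the vertical line, Prodh2 and Grhpr lie above the horizontal line, and none lies beyond both.

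The enzymes other than Hao1 shared much of their order over the arrays. In cortex their highest value was on replicate 2 for Hao2, Agxt2, Grhpr and Hoga1 and on replicate 3 for Aldh2, Dao and Prodh2, and their lowest was on replicate 1 or 4. In medulla replicate 2 was highest for 6 of these 7 enzymes, with Agxt2 at 10.45 on both replicates 2 and 3, and replicate 4 was lowest for all but Aldh2. Set against the mean of its region, Grhpr deviated by -0.41 on cortex replicate 4 and -0.54 on medulla replicate 4, Hoga1 by -0.30 and -0.46, and Dao by -0.22 and -0.47. Slc26a1 stood on the other side, at 0.82 and 0.41 on those arrays. After centring each gene on its mean over the 8 arrays, Grhpr and Hoga1 differed by a root mean square of 0.086 log2 units, Prodh2 and Dao by 0.12, and Hao2 and Agxt2 by 0.12. The measure is also small between genes that hardly vary, and the closest pair by it was Hao1 and Slc26a6, at 0.080, whose values ranged by at most 1.20-fold within a region.

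**Figure D4:**
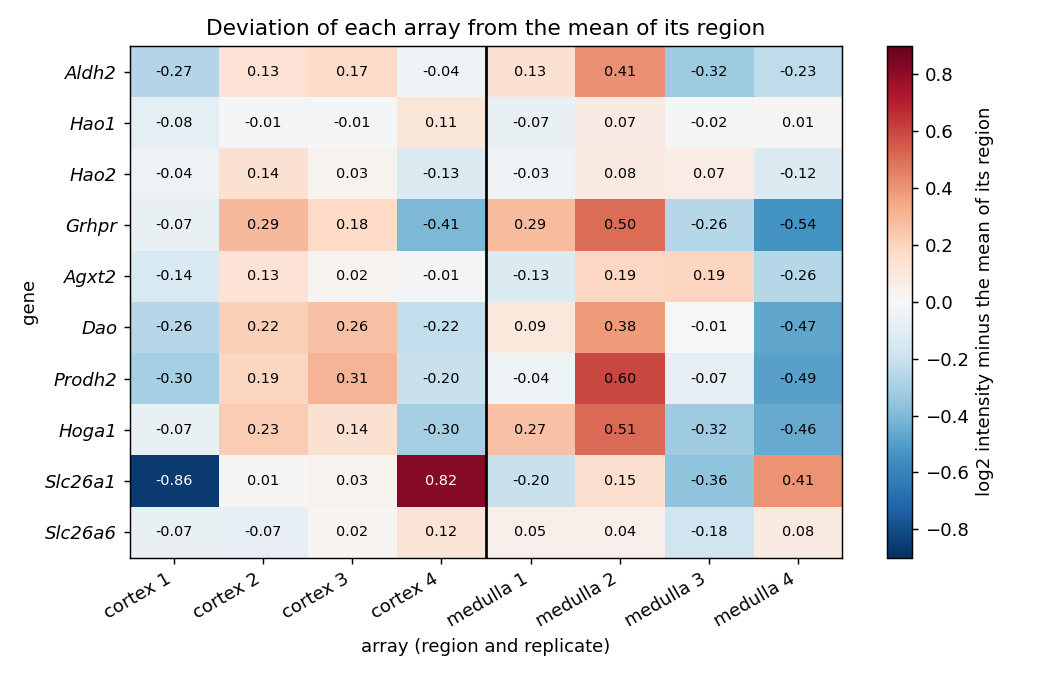
Deviation of each array from the mean of its region, in log2 units, for the 10 genes (rows) on the 8 arrays (columns), from low (blue) to high (red). Columns of replicate 2 are red for 7 enzymes in both regions, and on the replicate 4 arrays Slc26a1 is red at 0.82 and 0.41 while Grhpr, Hoga1, Dao and Prodh2 are blue.

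The genes with profiles most like those of the 3 that spread 2-fold were found by the same measure over the 8 arrays. For Grhpr they were Tkfc, Msrb1 and Cisd3, at root mean square differences of 0.068, 0.073 and 0.076 log2 units. For Prodh2 they were Insrr, Podxl and Tmod2, at 0.069, 0.097 and 0.10. Insrr measured 5.92, 6.46, 6.61 and 6.18 in cortex, with 5.62, 6.36, 5.70 and 5.33 in medulla, with the same high and low arrays as Prodh2. For Slc26a1 they were Pdpn, Myrf and Ildr2, at the larger distances of 0.15, 0.16 and 0.17. On replicate 4 Pdpn measured 7.13 in cortex and 6.50 in medulla, where the remaining arrays ran from 5.92 to 6.45 and from 5.91 to 6.22.

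Other genes of the pathway were read from a list of 29 symbols, of which 25 were measured and 0 were called between regions, with 20 lower and 5 higher in medulla and a median difference of -0.11. At least 2-fold ranges were found in 3 of the 25 in cortex and 3 in medulla, and in 2 in both. These 2 were Slc26a7 and Slc26a4, anion exchangers of intercalated cells. Slc26a7 measured 6.30, 5.93, 5.65 and 4.74 in cortex, with 6.60, 6.19, 6.53 and 5.00 in medulla, lowest on replicate 4 of both. Slc26a4, which encodes pendrin, measured 7.20, 8.26, 8.47 and 8.33 in cortex, with 6.92, 8.08, 7.48 and 7.08 in medulla, lowest on replicate 1 of both. Ldhb, a lactate dehydrogenase subunit, measured 9.50, 9.35, 9.25 and 8.71 in cortex, with 9.23, 9.48, 9.001 and 8.45 in medulla. Ldha, the other main subunit, measured 7.72, 7.91, 7.72 and 8.49 in cortex, with 7.66, 7.71, 7.59 and 8.28 in medulla. Replicate 4 of both regions was thus lowest for Ldhb and highest for Ldha. Agxt, the aminotransferase known from liver peroxisomes, stayed between 4.83 and 5.27. Ldha and Agxt were picked after their values were seen.

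Proximal tubule markers did not share 1 order over the arrays. In the list for proximal tubule segments S1 and S2, 16 of 16 genes were measured, 15 of them lower in medulla, with a median difference of -0.36. Their summed intensity ran from 14927 to 18523 units in cortex and from 11698 to 17060 in medulla, with medulla replicate 4 lowest and medulla replicate 2 highest in that region. Fbp1, a gluconeogenic enzyme, measured 8.34, 8.85, 8.63 and 7.97 in cortex, with 8.29, 8.65, 7.86 and 7.07 in medulla, with the same highest and lowest arrays as Grhpr. The sodium-coupled carrier genes Slc5a12, for lactate, and Slc5a2, for glucose, were highest on replicate 4 of both regions, like Slc26a1. Slc5a12 measured 7.90 and 6.88 there and Slc5a2 8.06 and 6.85. Slc13a3, a dicarboxylate carrier gene, measured 9.38, 10.14, 10.30 and 10.48 in cortex, in the same order as Slc26a1. In medulla its order differed from that of Slc26a1, at 9.67, 9.94, 8.99 and 9.64, highest on replicate 2 and lowest on replicate 3. In the straight tubule list 8 of 10 genes were measured, and their summed intensity was 2656 on cortex replicate 4 and 3114 on medulla replicate 4. The remaining arrays ran from 5299 to 6076 and from 5325 to 5512. Slc7a13, with the largest intensity in the sum, measured 11.69, 11.60, 11.37 and 9.65 in cortex. Replicate 4 was lowest for 6 of the 8 genes in each region. Slc5a8, picked after its values were seen, was highest on cortex replicate 4, at 8.35. Its regions did not overlap, at 8.03 to 8.35 in cortex and 7.66 to 7.94 in medulla. Slc22a13, an organic anion transporter, measured 8.05, 7.52, 6.96 and 4.75 in cortex.

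The injury list, measured in 14 of 14 genes, had summed intensities of 2264 to 11800 in cortex and 2458 to 14494 in medulla, highest on the replicate 4 arrays and lowest on the replicate 2 arrays. The vitamin D and calcium list, measured in 6 of 7 genes, ran from 834 to 4032 in cortex and from 512 to 3030 in medulla, lowest on replicate 1 and highest on replicate 3 of both regions. Averaged over its genes as a deviation from the regional mean, which weights dim and bright genes alike, the same list was highest on cortex replicate 4, at 0.95 against 0.80 on cortex replicate 3, and on medulla replicate 3, at 0.77. The list of medullary genes, measured in 9 of 11, ran from 2922 to 8278 in cortex and 4089 to 9817 in medulla. This sum, in which bright genes weigh most, was highest on replicate 1 and lowest on replicate 4 of both regions. Gene by gene, 5 of the 9 were lowest on medulla replicate 4 and 4 on medulla replicate 2, and 5 were lowest on cortex replicate 4. In the liver list, measured in 7 of 9 genes, the sum ran from 509 to 1443 in cortex and from 478 to 1089 in medulla. It was highest on replicate 4, where Fgb measured 9.89 in cortex and 9.59 in medulla. Fgb stayed between 5.05 and 6.53 elsewhere. Of the 7 genes, 2 were highest on cortex replicate 4 and 2 on medulla replicate 4, so most of the list did not follow the sum. No marker of any list is at 0, since the lowest value of the table is 17.3 units, and the liver markers ranged from Alb at 4.51 to 4.59 and Serpina1 at 4.46 to 4.64 to Cyp2e1 at 7.54 to 8.82, the last named after its values were seen. The leukocyte list, measured in 6 of 6 genes, ran from 1719 to 2287 in cortex and from 1749 to 2576 in medulla, lowest on replicate 2 and highest on replicate 4 of both regions. On replicate 4, 4 of the 6 genes were highest in cortex and 5 of the 6 in medulla. The lowest cortex array differed from that of the sum, with 4 of the 6 genes lowest on replicate 3 and 1 on replicate 2. In medulla all 6 were lowest on replicate 2. Fat, muscle and adrenal markers, 5 of 6 measured, ran from 196 to 215 and from 176 to 209. The part of these cell types and states in the values of the 10 genes was not tested.

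**Figure D5:**
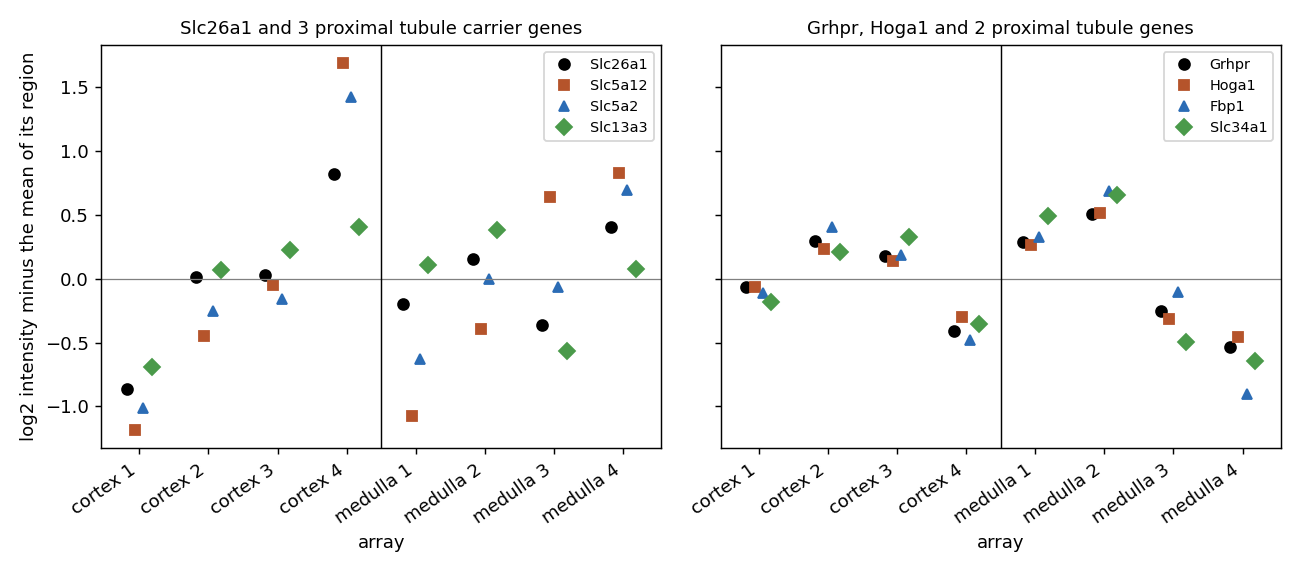
Deviation from the mean of the region, in log2 units, on each array: left, Slc26a1 with the carrier genes Slc5a12, Slc5a2 and Slc13a3; right, Grhpr and Hoga1 with Fbp1 and Slc34a1. On the left Slc26a1, Slc5a12 and Slc5a2 are highest on replicate 4 of both regions. Slc13a3 is highest on replicate 4 in cortex and on replicate 2 in medulla. On the right all 4 genes lie below 0 on both replicate 4 arrays.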

How the data were processed

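The table the authors deposited holds linear intensity values, 1 per probe set and array. The submitters' processing notes name Affymetrix Expression Console with RMA, without versions, and detection calls were not used here. Intensities were logged (base 2) with no pseudocount. Of 29870 probe sets, 18511 carried 1 gene symbol, 575 several and 10784 none here. Where a gene had several probe sets (291 genes), the brightest on average was kept, which left 18166 genes. No pair of arrays had more than 1 value in common.

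Regions were compared by limma (version 3.58.1, R 4.3.3) with lmFit and eBayes, adjusted by Benjamini-Hochberg over all genes and called at an adjusted p under 0.05 with at least 2-fold. The procedure was tested on simulated medulla against cortex data with 18166 genes. It called 41.8% of genes shifted by 1 log2 unit, the fold threshold itself, 97% at 2 units and 98.5% at 3. The shifted genes were planted, 67 at 1 unit, 67 at 2 and 66 at 3. In the real comparison Slc14a2 differed by 1.53 log2 units without overlap of the regions, yet its limma adjusted p was 0.875. The simulated percentages therefore do not give the power for the pathway genes in the real data. Named were all members, up to 4 genes per list with the largest smaller regional range, 5 reference genes and 3 nearest profiles. Members and lists were chosen with earlier results of these data known. Promoters were matched by Entrez identifier. Alternatives covered normalization, probe set means, a 30th percentile filter, a pseudocount of 16, limma's prior and weights, thresholds and left-out arrays. Figures were made in matplotlib 3.10.9.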

Additional observations from a re-analysis of the deposited data

Results flagged for a closer look

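Slc26a6 on medulla replicate 3, at 5.33 log2 intensity, lay far from the other 3 medulla arrays, which were between 5.55 and 5.59. Its gap to the nearest of them took up 0.853 of the range of the region, above Dixon's 95% critical value for 4 samples. It was 1 of 20 gene and region groups examined, and chance flags about 1 in 20. The values of Slc26a6 spanned 1.20-fold in medulla.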

How the results depend on the processing

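None of the 10 genes was called between regions under any alternative run, with quantile normalization, median centring, the mean of probe sets, dim genes left out (9 of the 10 genes remaining, without Hao1), a pseudocount of 16, a trended robust prior, array weights, an adjusted p alone, a 2-fold difference alone, the absence of overlap, the exact permutation test, and each array or both replicate 4 arrays left out. Each refit with limma called 0 of all genes too, so that this count of 0 says nothing about the stability of the 10 genes. The permutation test was read at its unadjusted p, of which 0.0286 is the smallest possible. The smallest limma adjusted p of a gene among the alternatives was 0.488. Of 159 differences recomputed under an alternative, 153 kept their direction and 6 reversed, all in Hao1 and Slc26a6. With single arrays left out Hao1 ran from -0.046 to 0.017 and Slc26a6 from -0.060 to 0.026. With both replicate 4 arrays left out Hao1 was 0.014, and with array weights Slc26a6 was 0.017. Leaving out arrays can only keep or lower a range. The count of genes with a 2-fold range ran from 0 to 1 in cortex and from 0 to 2 in medulla with single arrays left out, and was 0 in each with both replicate 4 arrays left out. In medulla it was 0 with a pseudocount of 16, which shrinks folds by construction. At 1.5-fold 3 genes passed in cortex, 6 in medulla and 3 in both, and at 3-fold 1 passed in cortex and 0 in medulla. The share of all genes at these 2 thresholds was not computed, so these counts cannot be set against a background. No paired analysis was possible because the labels give no number shared by arrays of the 2 regions. Detection calls were not used here, and the signal of Hao1, close to the lower quartile of probe sets, limits any difference read from it.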
